A study of Homo sapiens with 6 samples.

Results

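Isolated open regions are stretches of accessible chromatin that stand alone in the genome of hTERT-RPE1 cells. They were chosen by the positions of the deposited peaks, as shared regions, meaning overlapping peaks of the R1 and R2 peak lists joined into 1 region with at least 1 peak of each list, that lay on an autosome and had no other peak of either list within 100 kb on either side. This left 384 isolated regions among 119583 shared regions, out of 148160 joined regions on the autosomes, and 380 of them were made of exactly 1 peak from each list. The peaks themselves set the membership, so the emptiness around these regions is part of how they were chosen and not a result.

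The assay was ATAC-seq: the Tn5 transposase cuts accessible DNA in nuclei and leaves sequencing adapters behind. The cells were wild-type (WT) hTERT-RPE1, human cells of the retinal pigment epithelium made immortal by telomerase, grown without any treatment named in the labels. The 6 libraries form 2 sets, R1 and R2, of 3 libraries each, and only a peak list pooled over each set was analysed here, so no value carries a spread between libraries and no test was made. What separates R1 from R2 (culture, day or sequencing) is not stated in the labels, and a difference between the lists may be technical.

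Accessible regions are mostly promoters, where transcription starts, and distal elements such as enhancers and insulators, where sequence-specific factors displace nucleosomes. They tend to crowd together around active genes, whereas large parts of the genome with few genes, or with very long genes of the nervous system, hold few of them. In an epithelial cell line, neuronal gene loci are a usual example of such sparse surroundings. In bulk material, a region open in a few cells and a region weakly open in all cells cannot be told apart.

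The R1 list held 143492 peaks, 139657 of them on autosomes, and the R2 list 134940, of which 131287 were autosomal. The authors' fold, the enrichment of a peak over its local background, had a median of 5.03 in R1 and 5.11 in R2, and the recovered pileup (fragments over the summit) had a median of 72 in both. Of 14 marker genes of retinal pigment epithelium, 9 had a shared region at a gene end, among them BEST1, MITF and OTX2, whereas the visual cycle genes RPE65 and LRAT and the pigment genes TYR and TYRP1 had none, nor had TTR. Gene ends of 2 of 5 photoreceptor, 1 of 4 blood and 3 of 3 neuron markers also held a shared region, so these lists do not by themselves separate the labelled cell type from others. No isolated region lay in any of these marker genes.

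Promoters in isolated regions differed widely in CG content. The sequences below are the 250 bases before the transcription start of coding genes whose promoter overlapped an isolated region, some only in part. LOC124903248, DMAC1, GHR, ZNF717, MANEA and ZWINT were at regions among the 10 highest by fold or the 10 farthest from any other peak. CELF2, MAF and WSCD1 were at the 3 isolated regions with a promoter that had the lowest fold. They are RefSeq sequences of the GRCh38.p14 assembly, read 5′ to 3′ on the strand of the gene, and capitals mark CG dinucleotides. LOC124903248 (no role assigned here) gave chr13:106918491-106918740 on the minus strand, of which 11 bp lay in the isolated region, the start itself being inside. DMAC1, an assembly factor of mitochondrial complex I, gave chr9:7799779-7800028 (minus), and GHR, the growth hormone receptor, gave chr5:42423189-42423438 (plus). ZNF717, a zinc finger protein gene, gave chr3:75785005-75785254 (minus). MANEA, a Golgi mannosidase of glycan trimming, gave chr6:95577285-95577534 (plus). ZWINT, a kinetochore protein, gave chr10:56361260-56361509 (minus). CELF2, an RNA-binding splicing regulator, gave chr10:11164845-11165094 (plus). MAF, a bZIP transcription factor, gave chr16:79600738-79600987 (minus), and WSCD1 gave chr17:6068866-6069115 (plus).
LOC124903248: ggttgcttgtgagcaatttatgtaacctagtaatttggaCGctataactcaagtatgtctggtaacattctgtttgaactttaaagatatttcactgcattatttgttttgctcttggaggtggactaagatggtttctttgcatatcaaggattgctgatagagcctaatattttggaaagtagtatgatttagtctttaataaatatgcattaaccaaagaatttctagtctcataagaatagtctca
DMAC1: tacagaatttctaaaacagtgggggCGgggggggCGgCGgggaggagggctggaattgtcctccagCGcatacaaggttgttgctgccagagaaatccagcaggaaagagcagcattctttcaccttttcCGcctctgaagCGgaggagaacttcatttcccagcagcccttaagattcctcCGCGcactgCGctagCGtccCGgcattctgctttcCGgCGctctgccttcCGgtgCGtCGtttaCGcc
GHR: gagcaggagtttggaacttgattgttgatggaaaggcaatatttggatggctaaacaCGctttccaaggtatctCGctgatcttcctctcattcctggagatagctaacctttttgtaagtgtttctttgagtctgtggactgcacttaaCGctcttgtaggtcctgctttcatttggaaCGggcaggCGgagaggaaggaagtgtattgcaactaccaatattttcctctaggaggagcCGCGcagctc
ZNF717: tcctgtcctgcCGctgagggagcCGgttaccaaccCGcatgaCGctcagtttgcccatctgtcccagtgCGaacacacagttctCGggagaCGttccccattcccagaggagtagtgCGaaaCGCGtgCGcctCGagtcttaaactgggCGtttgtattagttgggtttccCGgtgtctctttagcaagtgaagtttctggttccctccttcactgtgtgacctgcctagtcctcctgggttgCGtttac
MANEA: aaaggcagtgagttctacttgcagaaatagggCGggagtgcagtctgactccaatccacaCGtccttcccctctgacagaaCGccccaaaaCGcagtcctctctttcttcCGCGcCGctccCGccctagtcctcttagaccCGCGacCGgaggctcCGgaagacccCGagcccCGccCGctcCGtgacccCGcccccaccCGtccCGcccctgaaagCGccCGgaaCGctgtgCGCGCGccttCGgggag
ZWINT: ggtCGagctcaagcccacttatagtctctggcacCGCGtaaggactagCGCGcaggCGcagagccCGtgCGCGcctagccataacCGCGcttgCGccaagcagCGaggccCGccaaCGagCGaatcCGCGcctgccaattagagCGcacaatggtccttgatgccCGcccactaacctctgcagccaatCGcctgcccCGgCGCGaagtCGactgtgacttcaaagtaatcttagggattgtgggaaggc
CELF2: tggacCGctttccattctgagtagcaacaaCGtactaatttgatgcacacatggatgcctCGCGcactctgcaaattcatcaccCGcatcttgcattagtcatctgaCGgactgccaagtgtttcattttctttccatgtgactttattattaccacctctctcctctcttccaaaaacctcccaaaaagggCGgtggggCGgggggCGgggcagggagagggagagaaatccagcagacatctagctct
MAF: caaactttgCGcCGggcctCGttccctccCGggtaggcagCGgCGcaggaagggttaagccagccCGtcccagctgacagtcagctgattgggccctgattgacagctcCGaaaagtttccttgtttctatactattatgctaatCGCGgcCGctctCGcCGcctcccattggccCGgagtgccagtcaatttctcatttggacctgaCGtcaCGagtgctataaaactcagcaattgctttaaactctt
WSCD1: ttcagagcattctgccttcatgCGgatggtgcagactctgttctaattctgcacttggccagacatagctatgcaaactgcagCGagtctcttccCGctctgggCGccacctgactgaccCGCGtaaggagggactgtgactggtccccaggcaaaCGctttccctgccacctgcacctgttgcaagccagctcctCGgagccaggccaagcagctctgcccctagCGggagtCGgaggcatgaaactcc

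The CG count of these upstream stretches ran from 1 to 26. The highest region, at LOC124903248, had 1 CG and a GC content of 32.4% in the stretch shown, which lay mostly outside the region, and DMAC1 and ZNF717 had 17 and 15 CG. GHR had 7 in the stretch shown, and 16 before a further start in the same region. Another GHR stretch, with 23, only reached into the region at its edge, and its start lay outside. MANEA and ZWINT, which were far from other peaks but of lower fold, had 26 and 25 CG. The stretches at the weak regions of CELF2, MAF and WSCD1 had 9, 16 and 10. Of the 250 bases shown, only 192 lay in the region for CELF2 and 160 for WSCD1. CELF2 had 5 and 9 CG before 2 further starts.

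Over whole promoter windows (250 bases before and 50 after a start, 300 in all), 56 windows of 43 coding genes overlapped 40 isolated regions, some only in part. Their GC content had a median of 63.0%, against 65.7% for 14066 windows in other shared regions and 52.7% for 6908 windows without a shared region. The median CG count was 21.5 in windows of isolated regions (from 1 to 53), 26 in windows of other shared regions and 5 in windows without a shared region. In 9 of the 56 windows the count was under 10, and 7 genes had no window with more. Isolated regions at promoters therefore lay over sequence nearer to that of other open promoters than to that of promoters with no shared region, by these medians.

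Of 3 short motifs searched on both strands of these windows, none was more frequent in isolated regions than over all coding promoters. The CTCF core AGNNGGCNC was in 14 of the 56 windows (25%), against 32.1% in other shared regions and 28.6% of all 21030 windows. The AP-1 motif TGANTCA was in 1 window (1.79%), against 5.18% in other shared regions and 6.09% of all. The TEAD motif GGAATG was in 5 (8.93%), against 11.0% in other shared regions and 12.2% of all. A match describes letters in a window and says nothing of whether a factor is bound.

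Isolated regions had a median fold slightly below that of other shared regions, rested on fewer fragments and were narrower. The fold in R1 had a median of 5.49 in isolated regions and 5.72 in the other 119199 shared regions, and in R2 of 5.004 and 5.52. The pileup had a median of 48 fragments in isolated and 87 in other shared regions of R1, and of 43 and 81 in R2. The median width was 621 bp in isolated regions and 835 bp in other shared regions. The background under the summit was at the lowest value in the R1 list (7.93 fragments) in 315 isolated regions, or 82.0%, against 27.4% of all shared regions, and at the lowest R2 value (7.79) in 317, or 82.6%, against 28.1% of all. A low background follows in part from having no peak nearby, so these shares describe the choice of regions and support nothing further. They stand beside the smaller gap in fold than in pileup. The median background was 7.93 in R1 and 7.79 in R2 for isolated regions, and 12.6 and 12.2 for other shared regions. Most isolated folds thus divide by 1 constant of the list, and the folds of both groups rest on unlike backgrounds.

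**Figure D1:**
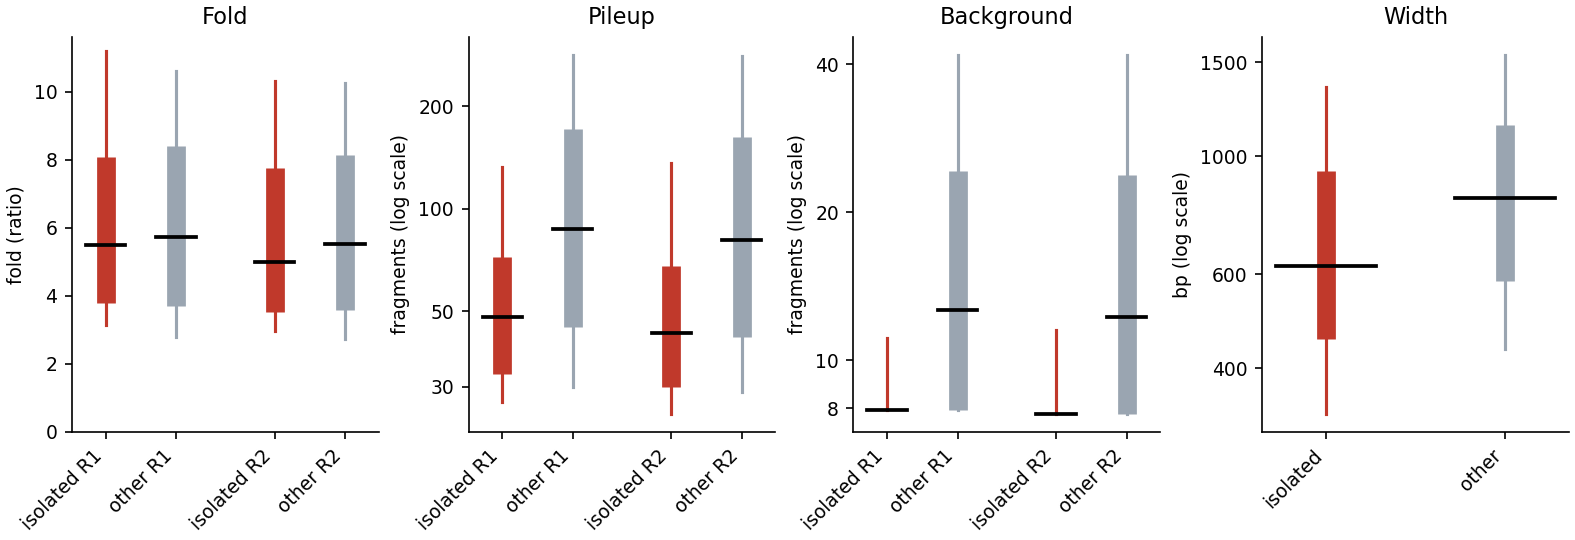
Fold (ratio), pileup and background (fragments), and width (bp) of isolated and other shared regions in the R1 and R2 lists. Black lines are medians, bars run from the 25th to the 75th percentile and thin lines from the 10th to the 90th, and all axes but that of fold are logarithmic. The folds of isolated and other regions overlap almost wholly, whereas the median pileup is 48 against 87 fragments in R1 and 43 against 81 in R2.

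By fold, few isolated regions were among the lowest 10% of a list, and about as many were among the highest 10% as of all shared regions. Among the 10% of R1 peaks with the highest fold lay 46 isolated regions, or 11.98%, where 11.7% of all shared regions lay, and among the highest 10% of R2 lay 43, or 11.2%, against 11.0%. Among the lowest 10% of R1 lay 4 (1.04%), against 5.05% of all shared regions, and among those of R2 lay 7 (1.82%), against 6.33%. Fold falls as background rises, and most isolated regions had the lowest background, in part by the choice of regions. These low shares are therefore partly set in advance and support nothing further. By pileup isolated regions were lower, with a 90th percentile of 132.9 fragments in R1 and 135.7 in R2, against 283 and 280 in other shared regions. At or above the median fold of the list were 215 isolated regions in R1 (56.0%, against 58.1% of all shared) and 185 in R2 (48.2%, against 54.8%).

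The order of isolated regions by fold was much the same in both lists. Spearman's rho between the percentile of fold in R1 and in R2 was 0.928 over the 384 isolated regions and 0.960 over other shared regions, as a description, since the regions of a list share its libraries. The median difference between the percentiles of a region in the lists was 6.01 points for isolated and 4.73 points for other shared regions. Summits of the lists were at most 10 bp apart in 168 isolated regions, or 43.8%, against 36.2% of all shared regions. Among isolated regions between genes this was so in 80 of 162 (49.4%, against 37.8% of other shared regions between genes). At gene ends it was so in 22 of 61 (36.1%, against 32.1% of other shared regions there). In gene bodies it was so in 36 of 97 (37.1%, against 36.1%), and in other genes in 30 of 64 (46.9%, against 36.9%). Isolated regions were also narrower, at a median of 621 bp against 835 bp. Those in gene bodies and between genes had similar median widths, 562 and 563.5 bp. A link between width and the distance of summits was not tested.

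**Figure D2:**
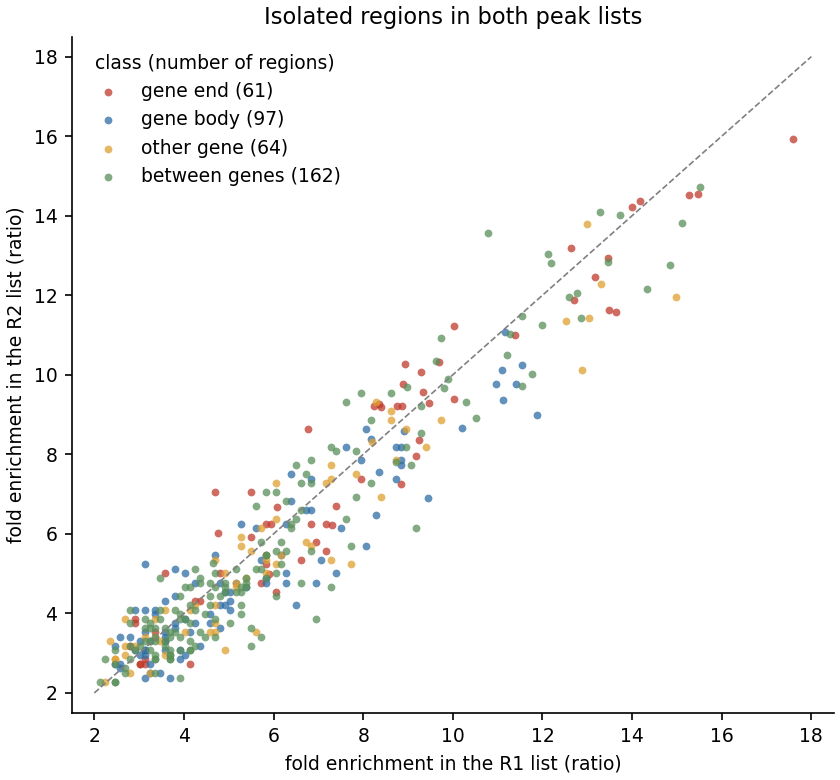
Fold enrichment of the 384 isolated regions in the R1 list (x axis, ratio) and the R2 list (y axis, ratio), each point a region coloured by its position relative to genes, with a dashed line of equal fold. The points lie along the line from about the lowest fold of 2.13 in R1 to the highest of 17.6.

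Most isolated peaks were found in both lists, and those of a single list were weak. Of 520 joined regions with no other peak within 100 kb, 384 were shared (73.8%), 96 were in R1 alone and 40 in R2 alone, set beside 80.7% shared among all joined regions. Those of R1 alone had a median fold of 3.02 and 26 fragments, with 92 of 96 below the list median, and those of R2 alone had a median fold of 3.01 and 25.5 fragments, with 39 of 40 below. Among the 25% of R1 regions with the lowest fold, 39.6% of the isolated ones were shared, against 55.7% of all. In the next 25% by fold it was 79.4% of the isolated against 91.7% of all, then 96.6% against 99.6%, and in the highest 25% all isolated R1 regions (100%) were shared. In R2 the share was 72.7% of the isolated against 70.3% of all in the lowest 25% by fold, 90% against 96.5% in the next, 98.9% against 99.9% in the third, and 100% of the isolated in the highest.

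Fold was not lowest where peaks were farthest apart, whereas pileup was. By distance to the nearest other peak, the median fold of shared regions was 4.24 in R1 and 4.10 in R2 under 1 kb, 7.29 and 7.05 at 10 to 30 kb, 6.27 and 5.91 at 30 to 100 kb, and, for isolated regions, 5.49 and 5.004 at 100 to 200 kb and 5.15 and 5.004 over 200 kb. The median pileup was 90 and 85 fragments under 1 kb and 45 and 43 over 200 kb. The share of regions found in both lists was 73.7% under 1 kb, 83.5% at 3 to 10 kb, 76.3% at 100 to 200 kb and 66.9% over 200 kb. Fold had its top at 10 to 30 kb, and pileup (92 in R1 and 86 in R2) and sharing had theirs at 3 to 10 kb, so for all 3 the isolated regions lay beyond the top.

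**Figure D3:**
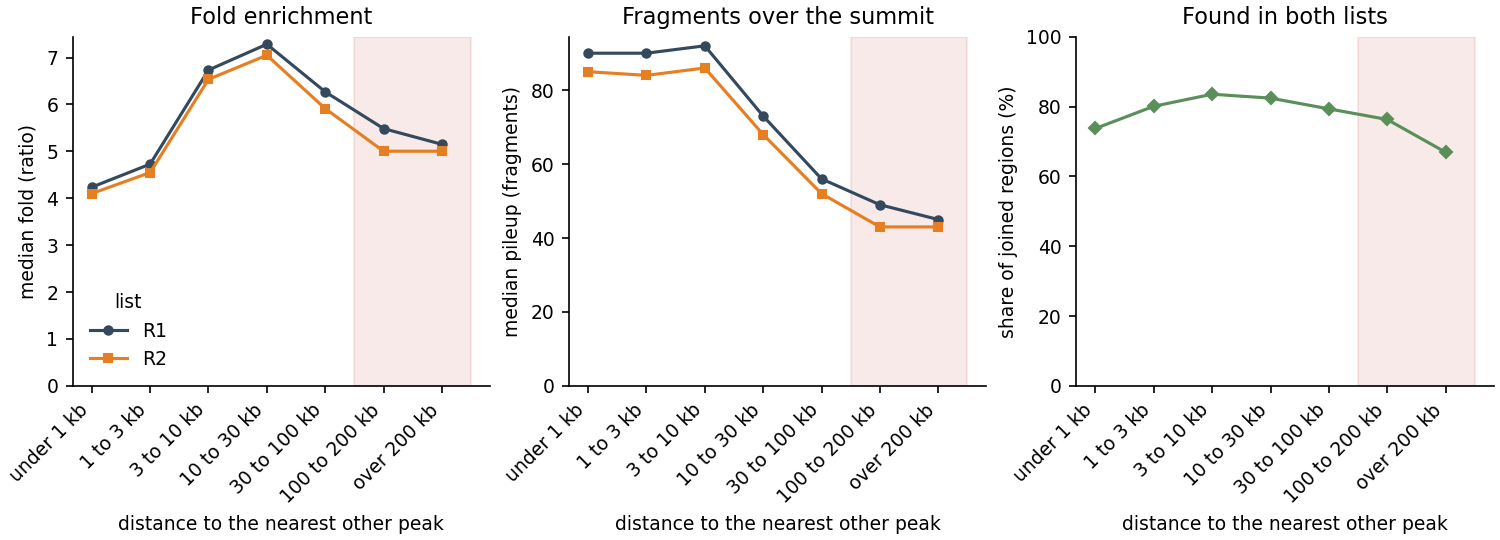
Median fold (ratio), median pileup (fragments) and share of joined regions found in both lists (%) by distance to the nearest other peak, with the bins of isolated regions shaded. Fold is highest at 10 to 30 kb (7.29 in R1, 7.05 in R2), and sharing is lowest over 200 kb, at 66.9%.

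Membership changes at 100 kb, and the 5 regions nearest to that limit on each side had overlapping folds. So few regions could not show a break. Just inside, a region on chromosome 21 with its nearest peak at 100.028 kb had an R1 fold of 11.98 and an R2 fold of 11.26, and one near SPDYE21 at 100.152 kb had 9.29 and 9.21. Regions near TRIM24, near OLIG3 and in LRP1B, at up to 100.558 kb, had R1 folds of 4.70, 12.88 and 6.83. Just outside, regions at ZNF705D and near DEFB116 and MYBPC1, at 99.644, 99.567 and 99.533 kb, had R1 folds of 3.58, 7.73 and 3.81. A region near ST8SIA4 at 99.507 kb had 13.4 in R1 and 14.3 in R2, and one at ERO1B at 99.370 kb had 7.67 and 8.84.

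The largest class of isolated regions lay between genes, and the next in the bodies of coding genes. Between genes were 162 of the 384 (42.2%), against 27.5% of all shared regions, and inside a coding gene away from its ends were 97 (25.3%, against 46.7%). At a coding gene end, which is any place at most 1000 bp from the start or end of a gene, were 61 (15.9%, against 13.2%). The share at gene ends moved with the setting. It was 12.4% with an isolation distance of 50 kb, 24.2% with 200 kb and 12.2% with the R1 list alone. At 50 kb it was thus below the 13.2% of all shared regions. In another gene only, mostly lncRNA genes, were 64 (16.7%, against 12.6%). Leaving out chromosome 8, for which start sites were not used here, 46 of 363 isolated regions lay at a coding start site (12.7%, against 10.6%). The distance to the nearest coding gene end had a median of 167 kb for isolated and 24.1 kb for other shared regions, and 63 isolated regions (16.4%, against 2.65% of all shared) were over 500 kb away. No coding gene lay within 500 kb of 58 isolated regions (15.1%, against 2.40% of all shared). Within 500 kb on either side, isolated regions had a median of 2 coding genes and 15.5 shared regions, and other shared regions had 8 and 63. The last pair is partly set by the choice of regions.

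**Figure D4:**
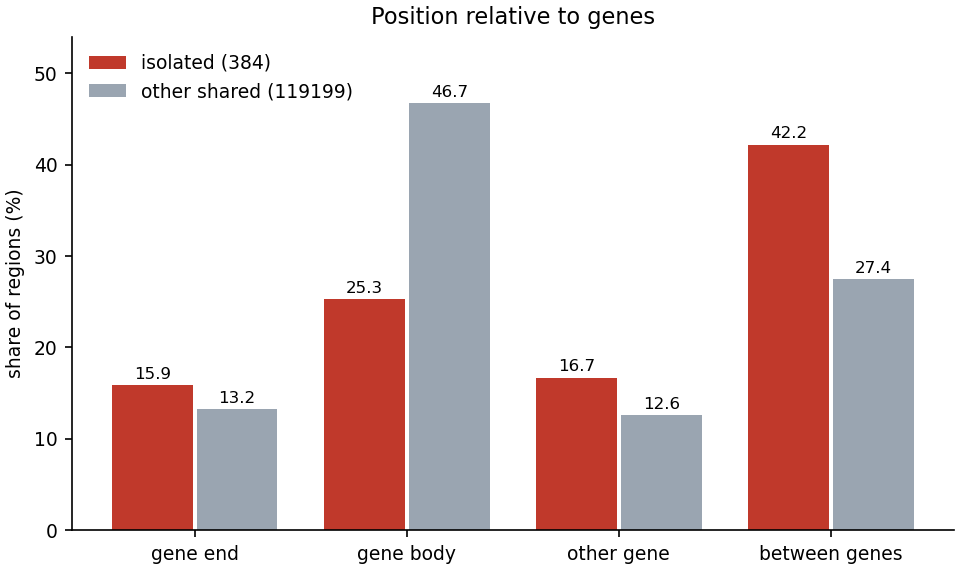
Share of isolated regions and of other shared regions (%) at a coding gene end, in a coding gene body, in another gene only, and between genes. Isolated regions are at 42.2% between genes, against 27.4% of other shared regions, and at 25.3% in gene bodies, against 46.7%.

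Isolated regions at gene ends were the strongest and widest of the isolated ones. Their median fold was 7.30 in R1 and 7.05 in R2, with 70 and 64 fragments and a width of 1206 bp. Other shared regions at gene ends had a similar fold, 6.64 and 6.69, but 241 and 258 fragments and 1376 bp. Isolated regions in gene bodies had a median fold of 4.81 and 4.55 and 562 bp, those in other genes 5.54 and 5.29 and 588 bp, and those between genes 5.26 and 4.66 and 563.5 bp. At or above the median fold of the list were 46 of 61 regions at gene ends in R1 (75.4%) and 45 in R2 (73.8%), against 46 (47.4%) and 37 (38.1%) of 97 in gene bodies. Other shared regions had the same order, with 68.5% and 68.2% at gene ends and 54.7% and 51.0% in gene bodies. The order is thus not particular to isolated regions.

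The highest of all was the region over LOC124903248 on chromosome 13, with an R1 fold of 17.6 and an R2 fold of 15.9 and 317 and 276 fragments. DMAC1 on chromosome 9 had 15.5 and 14.5, with nothing else open for 582 kb on one side and 1.06 Mb on the other. The region at the end of ZNF521, a zinc finger regulator of progenitor cells, had 15.3 and 14.5, and GHR had 14.2 and 14.4 over 1726 bp. ZNF717 had 14.002 and 14.2, with the next peak 2.82 Mb away on its right. All 5 were among the 10% of peaks with the highest fold in both lists, which follows from their choice by mean percentile.

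Several zinc finger genes had strong isolated regions at their ends. ZNF736 had an R1 fold of 13.5 and an R2 fold of 12.9, and ZNF66 had 13.2 and 12.5, each with over 300 fragments in both lists. ZNF248 had 8.36 and 9.28 with 336 and 417 fragments, and the promoter shared by ZNF558 and MBD3L1 had 8.23 and 9.21 with 368 and 442. In all, 7 of 505 autosomal ZNF genes held an isolated region (1.39%), against 0.795% of all coding genes, and 470 held some shared region. ZNF536 was the 7th, at 3.81 and 5.12.

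Further gene ends among the 20 highest covered metabolism, signalling and RNA handling. ABCD2, a peroxisomal transporter of very long fatty acids, had an R1 fold of 12.6 and an R2 fold of 13.2, and SKAP2, an adaptor of Src kinases, had 13.5 and 11.6. CSTF2T, an intronless relative of a subunit that cleaves pre-mRNA for polyadenylation, had 12.7 and 11.9 with 436 and 412 fragments, and lies inside the gene PRKG1. LRRIQ3 and FPGT, a gene of fucose salvage, shared a region with 11.4 and 10.995. SLC1A1, a glutamate transporter, had 10.02 and 9.40, KCNH8, a potassium channel, 10.04 and 11.2, and UQCRFS1, a subunit of mitochondrial complex III, 9.34 and 9.56. MANEA had 8.94 and 10.3, CCSER1 9.47 and 9.28, and MKRN3, an imprinted gene linked to the timing of puberty, 8.89 and 9.77. In each of these both folds lay well above the list medians, which follows from their choice by the highest mean percentile.

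**Figure D5:**
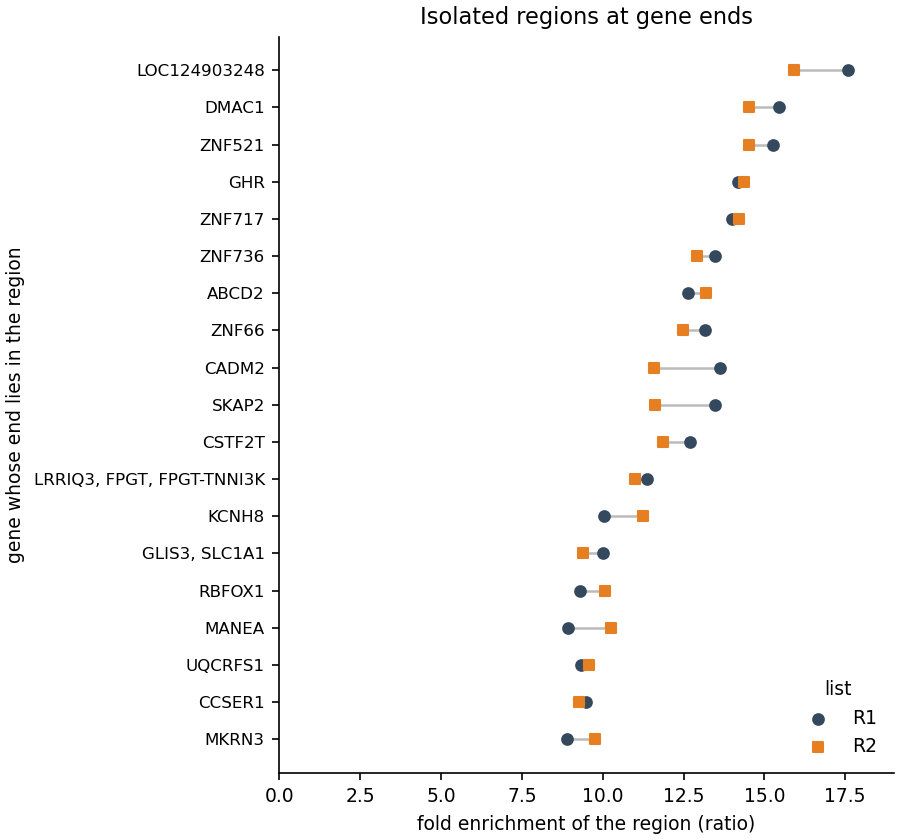
Fold enrichment (ratio) in R1 (circles) and R2 (squares) of 19 of the 20 isolated regions at coding gene ends with the highest mean percentile, each row labelled with the genes whose end lies there. R1 folds run from 17.6 at LOC124903248 to 8.89 at MKRN3, and the lists lie close together in every row.

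Other isolated gene ends were only weakly open, and these were picked out after their values were seen. MYCN, a growth-promoting transcription factor, had an R1 fold of 2.80 and an R2 fold of 3.18, and MAF had 3.14 and 2.73. HTR1A, a serotonin receptor, had 3.14 and 2.84, RCAN2, a calcineurin regulator, 2.91 and 3.87, and WSCD1 3.02 and 2.73, all with 33 fragments or fewer. CXCR4, the receptor of the chemokine CXCL12, was in between at 6.07 and 6.68, in a region of 2199 bp that was among the 5 widest. The widest, 3686 bp near TP53TG3B on chromosome 16, had 4.65 and 5.26. ADGRL3 (2668 bp) and ADGRB3 (2156 bp), adhesion receptors coupled to G proteins, were also among the 5 and lay at gene ends, with R1 folds of 5.90 and 8.41, as did ARHGAP20 (2028 bp) at 4.77.

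Isolated regions in gene bodies lay in long genes. The host gene had a median length of 545 kb for the 97 isolated regions and of 147 kb for the other shared regions in gene bodies, and 53 (54.6%, against 12.5% of the other shared ones) lay in genes of over 500 kb. In all, 152 of 19126 coding genes held an isolated region (0.795%), and 54 of the 303 coding genes of over 500 kb did (17.8%). Noncoding and other genes held one in 86 of 37630 cases (0.229%). A long gene offers more room for a region far from all others, so length and list membership cannot be told apart here.

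Long genes of synapses and cell adhesion held 25 isolated regions in 19 of 76 genes (25%), set beside 17.8% of all coding genes over 500 kb. The groups are not matched for length, with a median of 963 kb in the list and 721 kb in coding genes over 500 kb. Many of the listed genes also belong to the second group. Of the 76, 66 held some shared region. LRP1B, a large endocytic receptor, had 2 isolated among its 44 shared regions, with R1 and R2 folds of 6.83 and 6.60 and of 3.14 and 3.07. CNTNAP2, a neurexin relative, had 2 of 8, at 4.14 and 2.73 near its end and at 2.46 and 2.73 inside. DLG2, a scaffold of the postsynaptic density, had 2 of 23, at 3.14 and 2.96 and at 2.58 and 2.62. CADM2, a synaptic adhesion molecule, stood out, with 13.6 and 11.6 and 252 and 232 fragments near its end against 4.14 and 3.53 inside. Most of the regions named in this paragraph were below the list medians of 5.03 and 5.11. Further genes of the list had regions on either side, with PCDH15, RBFOX1 and PTPRT above both medians and SGCZ below.

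In 4 genes of this list the isolated region was the only shared region of the whole gene, which was noticed after the values were seen. These were PCDH15, a protocadherin of sensory hair cells, at 8.85 in R1 and 8.19 in R2, RBFOX1, a splicing regulator, at 9.29 and 10.1, PTPRT, a receptor phosphatase, at 8.06 and 5.69, and SGCZ, a sarcoglycan, at 3.36 and 3.53. The region in PCDH15 had no other peak for 1.91 Mb on the left and 1.56 Mb on the right.

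No coding gene held 3 or more isolated regions, and 15 held 2. Besides those above they included 2 more picked after their values were seen, PDE4D, a phosphodiesterase of cAMP, with 2 of 40 shared regions, at 6.38 in R1 and 7.51 in R2 over an internal start site and at 2.58 and 2.73, and XKR4, whose only 2 shared regions were both isolated. Of type II cadherins, adhesion proteins of neural and other tissues, 2 of 12 held 1 each (16.7%, against 0.795% of all coding genes): CDH12 at 8.73 and 8.19 and CDH9 at 2.91 and 4.09. The cadherin genes had a median length of 158 kb, against 24.5 kb for all coding genes, so length and list membership cannot be told apart. Of 391 olfactory receptor genes, odorant receptors of the nose, 3 did (0.767%), close to the 0.795% of all coding genes. These were OR4S1, OR51L1 and OR8B3, at R1 folds of 6.94, 4.37 and 6.83. However, only 35 of the 391 held any shared region (8.95%), against 84.7% of all coding genes. Their median length was 2.97 kb, against 24.5 kb, so the groups are not alike. Of 2263 LINC genes, long noncoding RNAs, 19 did (0.84%), against 0.229% of all noncoding and other genes, whose median length is 1.87 kb where that of LINC genes is 13.7 kb. Of 22 autosomal housekeeping genes 0 did, a list too short to be set against 0.795% of coding genes.

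Among the strongest regions between genes, some lay far from any coding gene and others nearer. The median distance to a coding gene end was 275 kb for isolated regions between genes. A region near PCDH9, a protocadherin gene 91.4 kb away, had an R1 fold of 15.5 and an R2 fold of 14.7, and one 341 kb from LUZP2 had 15.1 and 13.8. A region 825 kb from PLOD2, a collagen lysyl hydroxylase, had 13.7 and 14.02, and one 466 kb from ARAP2 had 13.3 and 14.1. Of the regions between genes among the 10 highest, the one nearest to a gene, 17.1 kb from TMPRSS13, had 14.8 and 12.8. The nearest gene is a label of place and not a target.

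Far from any other peak, regions of all strengths were found. Empty stretches of over 100 kb, of which there were 2717, covered 33.5% of the span of the peaks, and 91 isolated regions had over 200 kb empty on both sides, 22 over 500 kb and 6 over 1 Mb. The farthest lay on chromosome 1 at chr1:125117736-125118645, between stretches of 3.53 and 18.6 Mb without a peak, with 6.83 in R1 and 7.85 in R2. Next came a region on chromosome 16 in LOC101929923 at 4.93 and 5.004, and 1 in the pseudogene PRIM2BP on chromosome 6 at 6.16 and 5.46. ZWINT, at 8.87 and 9.21 with 292 and 306 fragments, had 1.56 and 1.29 Mb empty around it, and its left neighbour was the isolated region in PCDH15. MANEA had 1.78 Mb empty on its left and a region 274 kb from NRG3, a neuregulin, had 12.2 and 12.8, while regions on chromosome 8 (2.24 and 2.84) and in GABRA5, a GABA receptor subunit (3.69 and 2.39), were weak. Stretches without peaks can also be stretches where reads were not placed, and how well reads map there was not measured.

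The weakest isolated regions rested on few fragments, near the lowest count of 17 among other shared regions, while their fold was above the lowest of those regions (1.35 in R1 and 1.41 in R2). The lowest, 134 kb from FAM170A on chromosome 5, had an R1 fold of 2.13 and an R2 fold of 2.27 with 18 and 19 fragments. Regions in LINC02328, near HS3ST5 and near CHST9 had 2.24 to 2.46 in R1 and 2.27 in R2. The narrowest region, 224 bp and 338 kb from MKI67, was not weak, at 7.73 and 5.69, while 4 others of 246 to 254 bp had R1 folds of 2.58 to 3.36. Under 400 bp wide were 68 isolated regions (17.7%, against 7.48% of all shared).

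Isolated regions were spread unevenly over the chromosomes. Per 100 Mb of span there were 13.8 on the autosomes together, 21.1 on chromosome 21 (8 regions), 20.01 on chromosome 4 (38), 18.8 on chromosome 6 (32) and 18.7 on chromosome 13 (18), against 4.81 on chromosome 17 (4) and 6.31 on chromosome 15 (5). Chromosome 22 had 0 among 2207 shared regions. Of the 384, 95 had another isolated region as the next region on the same chromosome, in 40 runs of 2 and 5 runs of 3. This follows in part from the choice of regions, since the neighbour of an isolated region already has an empty stretch on that side.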

How the data were processed

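ATAC-seq peaks of 6 libraries of WT hTERT-RPE1 cells were used as 2 deposited lists, each pooled by the authors over the 3 libraries of a set (R1, R2). Per the submitters' processing notes, positions refer to hg38. For the aligner, the peak caller and their settings, nothing is given in the sources used here. The deposited lists give each peak's fold (a ratio over local background, the authors' value) and the −log10 p-value and −log10 q-value that the authors' peak caller assigned. Depth per library is unknown, so no spread or test was possible, and shares are given as counts of all regions.

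Overlapping peaks (at least 1 bp) of both lists on chromosomes 1 to 22 were joined. The best peak of each list gave a region's fold. Pileups were worked out from the deposited fold and p-value, by assuming that the fold divides the pileup by the background after adding 1 to each, and that the p-value is a Poisson tail above the pileup. The assumption is inferred from the values: whole numbers came out within 0.001 on the −log10 scale for 99.998% of the R1 list and 99.995% of the R2 list. Percentiles of fold were taken within a list. Genes, start sites and promoter sequences came from RefSeq (GRCh38.p14), and a gene end is within 1000 bp of either end of a gene. No genome sequence was used, so motifs were searched in RefSeq promoter windows in place of windows around summits.

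Named were the 10 highest and 5 lowest regions by mean percentile, the 5 widest and 5 narrowest, the 10 farthest, the 20 highest at gene ends, the 5 on each side of the threshold, genes with 3 or more isolated regions (there were none) and up to 4 genes per list, and others are marked as chosen after their values were seen. Some items covered by these rules are not reported here. The regions and lists were chosen with earlier results of these data known. The scripts (scipy 1.17.1, numpy 2.4.6, pandas 2.3.3, matplotlib 3.10.9, on Python 3.11.15) were tested on simulated data.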

Additional observations from a re-analysis of the deposited data

Results flagged for a closer look

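Chromosome X was outside the choice of regions, which took autosomes only, and it also held isolated open regions. By the same rule there were 35 isolated shared regions among its 2838 shared regions, or 22.5 per 100 Mb, against 13.8 on the autosomes. Their median fold was 5.93 in R1 and 5.46 in R2, against 5.49 and 5.004 for the isolated regions of the autosomes. There are no control samples, and no test was made.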

How the results depend on the processing

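Alternatives were compared by whether they moved a share or a median out of its 95% interval, or a count by over 1.5 times. Of 171 values compared, 129 stayed within and 42 did not, and the cause was not tested. Requiring 50% reciprocal overlap, measuring from summit to summit and narrower or wider gene-end windows moved none. An isolation distance of 50 kb gave 1448 regions, 12.4% at gene ends, 54.01% at or above the R2 median fold, 105 kb to a gene end and 24 shared regions within 500 kb, with 35 synaptic, 7 olfactory receptor, 30 ZNF and 72 LINC genes. One of 200 kb gave 91 regions, 24.2% at gene ends, 35.2% between genes, 66.9% found in both lists and 5 shared regions nearby, with 7 synaptic, 1 cadherin, 0 olfactory receptor, 3 ZNF and 4 LINC genes. With only shared regions ending isolation there were 619, and without stretches of over 1 Mb and chromosome ends 18 shared regions nearby. With a −log10 q of at least 5, the median fold was 6.05 in R1 and 5.46 in R2, the pileup 53 and 47, and the share at or above the median fold 64.5% and 56.4%. With at least 10 these were 7.17 and 7.02, 64 and 61.5, and 85.4% and 76.6%, with a width of 778.5 bp, 77.6% found in both and 13 shared regions nearby. R1 alone gave a fold of 4.70, 46.1% at or above its median, 12.2% at gene ends and 495 bp, and R2 alone 4.66 and 484 bp. Motif alternatives around summits were not run. No paired analysis was possible because the lists are pooled over libraries, and for the same reason no library could be left out.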
